A study of Homo sapiens with 88 samples.

Results

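Gene expression in H69, an established human small cell lung cancer (SCLC) line, was compared after 4 days with a compound that the sample titles call 552A and after 4 days with its vehicle DMSO. The 4 arrays whose titles begin with H69 were taken, 2 per arm, of 88 in the series. No H69 array of another day was analysed here. Both arms grew in RPMI with 10% FBS, and the labels list multiple passages for the line and no genetic change. The protocol names DMSO or GSK2879552 at 1 µM as the treatment, the latter being known to inhibit LSD1, and no label states that 552A is that compound. The series asks how LSD1 inhibition changes expression in SCLC lines that are sensitive or resistant to it, and its labels do not say to which class H69 belongs. The 84 arrays of 8 other SCLC lines entered the fit, 33 of them at day 4. All arrays were Affymetrix HG-U133 Plus 2.0, and the deposited values are log2 signals per probe set. A difference of 1 on this scale is a doubling.

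LSD1, encoded by KDM1A, removes methyl groups from histone H3 and works in repressor complexes with RCOR proteins, histone deacetylases and HMG20B. DNA-binding factors of the SNAG family, such as INSM1, GFI1 and GFI1B, bring it to target genes, so that its inhibition is known to raise some repressed genes. SCLC cells usually carry a neuroendocrine program of peptide hormones, secretory vesicle proteins and neural transcription factors, and Notch signalling is known to oppose that program.

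The H69 arrays carried the markers of this tumour type. All 9 neuroendocrine markers that could be read lay above the median signal of 7.41, and their mean level was 11.93 and 11.93 in the DMSO arrays and 11.69 and 11.70 in the 552A arrays. INSM1 stood at 13.82 and 13.77 under DMSO. Of the markers of other cells, 2 of 9 immune, 3 of 9 fibroblast, 3 of 7 endothelial and 0 of 4 tuft cell markers lay above the median signal. The mean of the immune list was 6.31 and 6.38 under DMSO and 6.31 and 6.37 under 552A, and that of the fibroblast list was 6.86 and 6.88 under DMSO and 6.92 and 6.94 under 552A. PTPRC, the pan-leukocyte surface protein, stood at 4.57 and 4.47 under DMSO. COL1A2, a collagen chain, was bright at 12.02 and 11.99. The precision is limited by how few arrays there are. Over 15352 genes the standard deviation of the difference was 0.152 between the DMSO arrays and 0.139 between the 552A arrays, and it lay from 0.235 to 0.246 between arrays of different arms. No label says that arrays of an arm came from separate cultures, so all p-values measure the spread between arrays, which may be technical.

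552A changed 641 of 15352 genes tested in H69, 4.18% of them, at an adjusted p below 0.05 (limma, Benjamini-Hochberg). Of these, 375 rose (2.44%) and 266 fell (1.73%). The median change over all genes was 0.002. The median size of a called change was 0.59 and the smallest was 0.26. A change of more than 1 on the log2 scale was reached by 60 genes that rose and 30 that fell, and a change of more than 2 by 4 that rose and 1 that fell. In all 641 called genes both 552A arrays lay on the same side of both DMSO arrays, an arrangement found in 52% of the genes tested. The count fell to 381 without DMSO replicate 1, 351 without DMSO replicate 2, 328 without 552A replicate 1 and 344 without 552A replicate 2, and it was 1070 when 6 arrays of other lines with doubtful quality were left out. Of the called genes 30 had 1 arm and 17 had both arms below 6.09, the lower quartile of a typical array. Such arms are called dim here and their fold changes are imprecise.

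**Figure D1:**
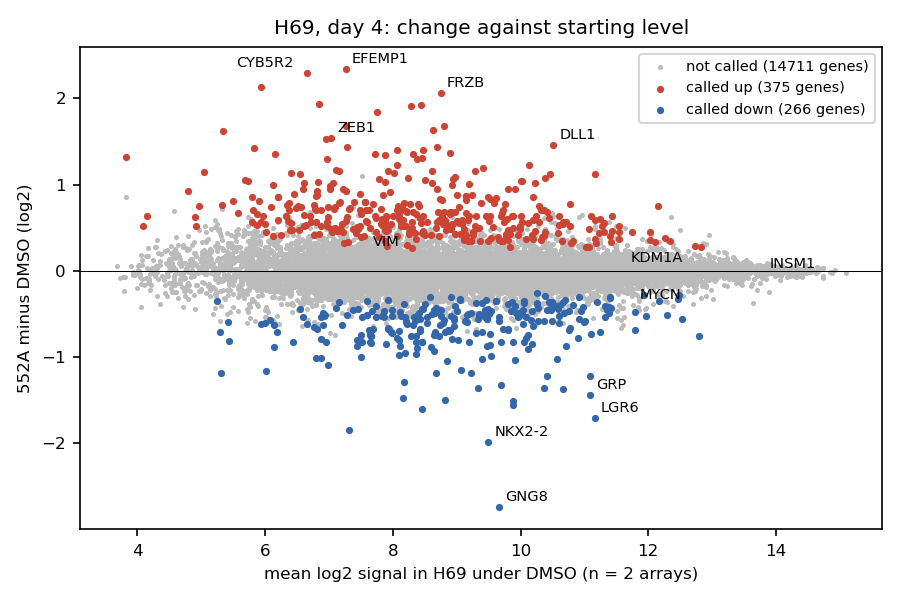
Change in log2 signal, 552A minus DMSO, against the mean log2 signal under DMSO in H69 at day 4, 1 point per gene (15352 genes, 2 arrays per arm). The 375 genes called up are red, the 266 called down are blue and the others are grey. The largest fall, GNG8, stood at 9.66 under DMSO, and the largest rises, EFEMP1 and CYB5R2, at 7.26 and 6.66.

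The sequence just upstream of the start is shown for the 2 risers and the 2 fallers with the largest change among the named genes that have an entry in the RefSeq promoter table. The series title links the LSD1 inhibitor to DNA methylation, and methylation was not measured on these arrays, so the CpG dinucleotides, the sites of DNA methylation, are in capitals. Each run is the 250 bases before the RefSeq start, 5′ to 3′ in the direction of the gene, in GRCh38.p14. All 4 genes lie on the minus strand: CYB5R2 at chr11:7673501-7673750, FRZB at chr2:182866638-182866887, GNG8 at chr19:46636203-46636452 and NKX2-2 at chr20:21522690-21522939.
CYB5R2, up: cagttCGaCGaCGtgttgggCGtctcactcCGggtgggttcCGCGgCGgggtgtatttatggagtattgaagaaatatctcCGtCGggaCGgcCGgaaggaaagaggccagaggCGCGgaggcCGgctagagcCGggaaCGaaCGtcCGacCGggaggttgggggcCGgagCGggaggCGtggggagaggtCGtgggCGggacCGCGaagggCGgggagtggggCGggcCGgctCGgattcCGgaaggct
FRZB, up: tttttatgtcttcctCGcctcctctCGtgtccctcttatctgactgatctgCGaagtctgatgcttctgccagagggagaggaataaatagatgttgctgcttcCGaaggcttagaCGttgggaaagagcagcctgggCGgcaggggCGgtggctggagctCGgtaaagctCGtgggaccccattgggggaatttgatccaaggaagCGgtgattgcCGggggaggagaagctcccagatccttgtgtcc
GNG8, down: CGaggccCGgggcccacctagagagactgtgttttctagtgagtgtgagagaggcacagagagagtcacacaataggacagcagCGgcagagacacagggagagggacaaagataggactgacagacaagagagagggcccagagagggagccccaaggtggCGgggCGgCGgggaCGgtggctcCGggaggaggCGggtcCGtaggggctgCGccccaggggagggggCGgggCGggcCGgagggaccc
NKX2-2, down: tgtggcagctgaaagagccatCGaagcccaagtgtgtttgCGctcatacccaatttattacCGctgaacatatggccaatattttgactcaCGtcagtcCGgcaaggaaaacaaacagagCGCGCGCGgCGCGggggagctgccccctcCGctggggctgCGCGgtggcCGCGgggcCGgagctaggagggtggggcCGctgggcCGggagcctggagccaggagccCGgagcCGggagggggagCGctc
The run of CYB5R2 holds 32 CpG dinucleotides, that of FRZB 11, that of GNG8 14 and that of NKX2-2 22. The median over 27305 promoters of the same table was 11, with quartiles of 3 and 23. Over the 12236 tested genes with an entry, 79.7% of those tested, it was 20, with quartiles of 11 and 27. The runs of FRZB and GNG8 lie below that second median. None of the 4 runs holds CACCTG or CAGGTG, the E-box and its reverse complement that ZEB1 is known to bind, and 17.5% of the 27305 promoters hold at least 1. A comparison of promoters between all risers and all fallers is void, because 78.9% of the risers and 75.2% of the fallers had an entry, less than the 80% required.

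**Figure D2:**
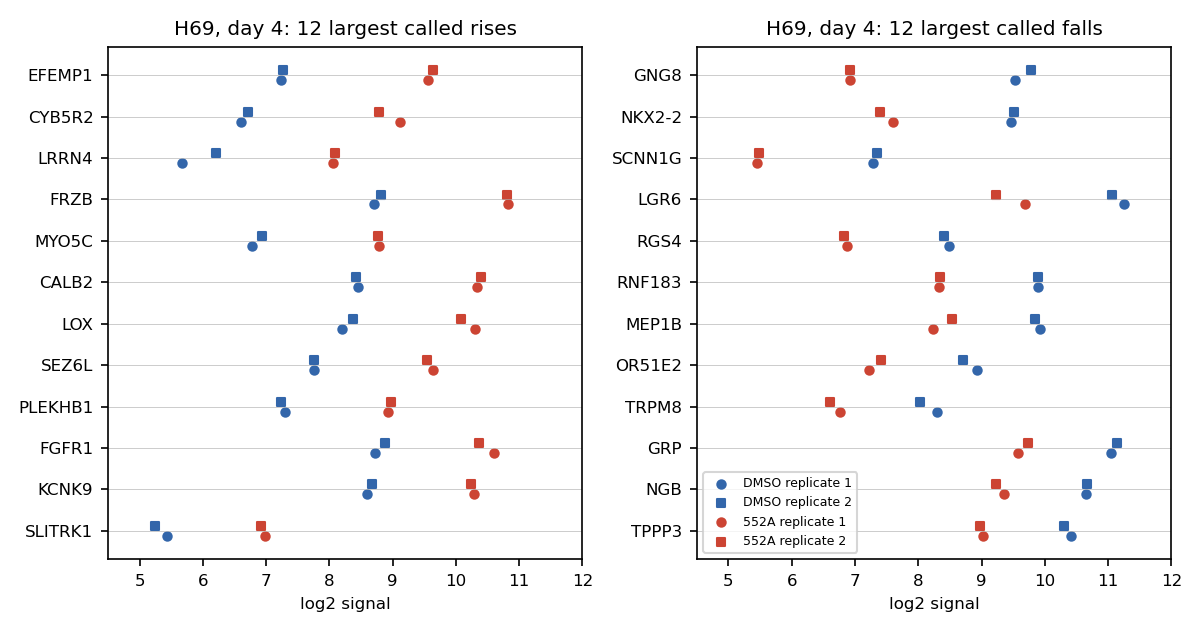
Log2 signal on each of the 4 H69 arrays for the 12 genes with the largest called rise (left) and the 12 with the largest called fall (right). Circles are replicate 1 and squares replicate 2, blue for DMSO and red for 552A. In every row the red points lie beyond both blue points, as the choice of genes required.

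Among the 12 largest rises were EFEMP1, FRZB and LOX, whose products act outside the cell. EFEMP1, the matrix protein fibulin-3, read 7.24 and 7.27 in the DMSO arrays and 9.56 and 9.63 in the 552A arrays. The arms were far apart, and the change was 2.34 ± 0.19 (SE), 5.05-fold, with an adjusted p of 3.56e-13. CYB5R2, a cytochrome b5 reductase, read 6.61 and 6.72 under DMSO and 9.11 and 8.79 under 552A, a rise of 2.29 ± 0.16 with an adjusted p of 1.11e-15. FRZB, a secreted antagonist of Wnt ligands, read 8.70 and 8.81 under DMSO and 10.83 and 10.80 under 552A. Its rise was 2.06 ± 0.20, with an adjusted p of 3.03e-11, and its other probe set gave 1.72. LOX, the enzyme that cross-links collagen, read 8.20 and 8.37 under DMSO and 10.30 and 10.08 under 552A, a rise of 1.91 ± 0.24. Its 3 probe sets gave rises from 1.06 to 1.91.

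The other large rises included CALB2, FGFR1 and KCNK9. CALB2, the calcium-binding protein calretinin, read 8.46 and 8.42 under DMSO and 10.34 and 10.39 under 552A, a rise of 1.92 ± 0.25. SEZ6L, a transmembrane protein of neurons, read 7.75 and 7.76 under DMSO and 9.64 and 9.55 under 552A, and its 6 probe sets rose by 1.01 to 1.84. MYO5C, a motor of the class V myosins, read 6.77 and 6.93 under DMSO and 8.79 and 8.77 under 552A, a rise of 1.93 ± 0.13. Arrays within an arm lay close together for all 3 genes. Their arms did not overlap, which the choice of these genes required and which 52% of the genes tested showed. FGFR1, a receptor for fibroblast growth factors, read 8.72 and 8.88 under DMSO and 10.60 and 10.37 under 552A, a rise of 1.68 ± 0.16. Its probe sets disagreed, with changes from 0.00 to 1.68 over 7 of them. KCNK9, a background potassium channel, read 8.59 and 8.67 under DMSO and 10.29 and 10.24 under 552A, a rise of 1.63 that its dimmer second probe set put at 0.11. PLEKHB1 rose by 1.68, where its other probe set gave 0.15. LRRN4 and SLITRK1, leucine-rich repeat proteins of neurons, rose by 2.13 and 1.62 from dim DMSO levels of 5.94 and 5.34.

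Among the 12 largest falls were 2 genes of G protein signalling, GNG8 and RGS4, and 2 ion channels, TRPM8 and SCNN1G. GNG8, a gamma subunit of heterotrimeric G proteins, had the largest change of any gene tested. It read 9.53 and 9.79 in the DMSO arrays and 6.92 and 6.92 in the 552A arrays. The fall was -2.74 ± 0.13, 6.69-fold, with an adjusted p of 3.58e-23. NKX2-2, a homeobox factor of neural and endocrine progenitors, read 9.46 and 9.51 under DMSO and 7.60 and 7.39 under 552A, a change of -1.99 ± 0.23 with an adjusted p of 3e-09. LGR6, a receptor for the R-spondins that strengthen Wnt signalling, read 11.26 and 11.07 under DMSO and 9.68 and 9.23 under 552A, a change of -1.71 ± 0.16. RGS4, which turns off G protein signals, read 8.49 and 8.41 under DMSO and 6.87 and 6.82 under 552A, a change of -1.60 ± 0.29. Its 3 probe sets gave changes from -1.60 to -0.38.

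GRP, the gastrin-releasing peptide made by neuroendocrine cells, read 11.05 and 11.14 under DMSO and 9.57 and 9.74 under 552A, a change of -1.44 ± 0.33 with an adjusted p of 0.00294. Its call ended without 552A replicate 1, and also when the arrays of H69, H2171 and H1417 were fitted alone. Over 16 alternatives its change lay between -1.52 and -1.35. NGB, the neuronal oxygen-binding protein neuroglobin, read 10.65 and 10.67 under DMSO and 9.35 and 9.23 under 552A, a change of -1.37. TPPP3, a tubulin-binding protein, fell by 1.36, RNF183, a ubiquitin ligase, by 1.55, and MEP1B, the protease meprin beta, by 1.51. These 3 genes stood between 9.89 and 10.36 under DMSO. OR51E2, a member of the olfactory receptor family, fell by 1.50 and TRPM8, the cold-sensing cation channel, by 1.47. SCNN1G, the gamma subunit of the epithelial sodium channel, read 7.29 and 7.35 under DMSO and a dim 5.45 and 5.48 under 552A, a change of -1.85 ± 0.19. Without the filter on dim probe sets another probe set stood for SCNN1G, and its change was -0.08 with an adjusted p of 0.99. This was the highest adjusted p of SCNN1G over 15 alternatives, and the lowest was 3.85e-11.

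Most neuroendocrine markers did not pass the test. Of 31 neuroendocrine markers 29 were tested, 3 fell and 26 did not pass the test (10.3% called, against 4.18% of all genes), and the median change was 0. Beside GRP, STX1A, a protein of vesicle fusion, fell by 0.85 and DLL3, an inhibitory Notch ligand of SCLC cells, by 0.51 with an adjusted p of 0.0451. INSM1 read 13.82 and 13.77 under DMSO and 13.73 and 13.78 under 552A, a change of -0.04 that did not pass the test. Of 32 neural and neuroendocrine transcription factors 29 were tested, 1 rose and 4 fell (17.2%, against 4.18% of all genes), with a median of 0.01. POU3F2, a POU domain factor of neurons, rose by 0.68, to 9.54 and 9.59 in the 552A arrays. Beside NKX2-2, the factors that fell were NHLH1 by 0.91, LHX2 by 0.54 and ONECUT2 by 0.40. The calls of DLL3 and ONECUT2 ended when any 1 H69 array was left out.

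In the Notch pathway DLL1, an activating ligand, rose while most members did not pass the test. It read 10.56 and 10.46 under DMSO and 11.99 and 11.95 under 552A, a rise of 1.46 ± 0.20 with an adjusted p of 7.42e-07, and its dimmer second probe set gave 1.21. The receptor NOTCH2 rose by 0.61 with an adjusted p of 0.0451, a call that ended when any 1 H69 array was left out. Of 36 members 34 were tested, 2 rose, 1 fell and 31 did not pass (8.82% called, against 4.18% of all genes), with a median of -0.04. The Notch target HES4 differed by 0.36 with an adjusted p of 0.105 and HEY1 by 0.25 with an adjusted p of 0.52; both were named after their values were seen.

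Called members of the mesenchymal and of the epithelial list all rose. Of 40 mesenchymal genes 38 were tested, 6 rose and none fell (15.8% called, against 4.18% of all genes), and the median change was 0.16. ZEB1, a repressor of epithelial genes, read 7.12 and 6.94 under DMSO and 8.64 and 8.51 under 552A. Its rise was 1.54 ± 0.15, and its 4 probe sets ranged from -0.04 to 1.54. ANXA1, the phospholipid-binding annexin, rose by 1.05, CDH2, the neural cadherin, by 0.63, TPM2, a tropomyosin, by 0.45 and LGALS3, a galectin, by 1.43. The calls of LGALS3 and TPM2 ended when 1 of several H69 arrays was left out. VIM, the intermediate filament vimentin, read 7.44 and 7.73 under DMSO and 7.83 and 7.78 under 552A, a difference of 0.22 that did not pass the test. Of 31 epithelial genes 30 were tested, 4 rose and none fell (13.3% called, against 4.18% of all genes), with a median of 0.12. The keratins KRT19 and KRT18 rose by 0.63 and 0.52, the tight junction protein OCLN by 0.55 and OVOL2, an epithelial transcription factor, by 0.55. Among these 4, OCLN alone was called under every alternative. The mean of the fibroblast markers in each array is given above. Of the 9 fibroblast markers FAP was not tested, and 0 of the others were called.

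Receptors and inhibitors of growth factor signalling were among the called genes. Of 42 members 38 were tested, 6 rose and 2 fell (21.1%, against 4.18% of all genes), with a median of 0.08. Beside FGFR1, the receptor FGFR2 read 7.53 and 7.45 under DMSO and 8.45 and 8.32 under 552A, a rise of 0.89 ± 0.13, with probe sets from -0.15 to 1.06. SPRED1 and SPRY2, inhibitors of signalling from such receptors to ERK, rose by 1.08 and 0.62, the latter with both arms dim. DUSP4, a phosphatase of ERK, rose by 0.82 and the ligand IGF1 by 0.77. The other probe sets of IGF1 gave rises of 0.92, 1.94 and 2.07. The receptor KIT fell by 0.43 with an adjusted p of 0.0335, and the receptor MET, named after its value was seen, fell by 0.49. The calls of SPRY2, IGF1 and KIT ended without at least 1 of the H69 arrays.

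Calls in the TGF-beta and BMP list went in both directions. Of 37 members 36 were tested, 3 rose and 2 fell (13.9%, against 4.18% of all genes). INHBA, a subunit of activins, read 8.82 and 8.88 under DMSO and 7.76 and 7.86 under 552A, a change of -1.04 ± 0.16. Its dimmer second probe set gave -1.79. The ligand BMP4 fell by 0.45. The signal transducer SMAD3 rose by 0.66, the receptor ACVR1 by 0.63 and the corepressor TGIF1 by 0.46. Of these 5 genes INHBA alone was called without each of the 4 H69 arrays in turn. In the list around PTPN14 and the Hippo pathway 27 of 32 members were tested, 3 rose and 1 fell (14.8%, against 4.18% of all genes). PTPN14, a phosphatase that restrains YAP1, read 7.12 and 7.01 under DMSO and 8.19 and 7.98 under 552A. Its rise of 1.02 had an adjusted p of 0.000536, and with the mean of its 4 probe sets the value was 0.30 with an adjusted p of 0.211, the highest over 16 alternatives, where the lowest was 0.000423. AMOTL2, a junction protein of the same pathway, rose by 1.04 from a dim level, the transcription factor TEAD4 rose by 0.43 and its cofactor VGLL3 fell by 0.74. The calls of AMOTL2, TEAD4 and VGLL3 ended without at least 1 of the H69 arrays. YAP1 itself was dim in both arms, at 5.88 and 6.00 under DMSO and 5.79 and 6.04 under 552A.

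Ion channels and guidance molecules changed in both directions. Of 41 nicotinic receptors and voltage-gated or related channels 35 were tested, 1 rose and 4 fell (14.3%, against 4.18% of all genes), with a median of -0.07. CACNA1A, the pore subunit of a neuronal calcium channel, read 11.11 and 11.07 under DMSO and 9.90 and 9.84 under 552A. It fell by 1.22 ± 0.23, and 4 of its 5 probe sets gave changes from -1.28 to -1.07, the fifth -0.10. The potassium channel KCNJ6 fell by 0.72, the calcium channel subunit CACNB2 by 0.54 and the nicotinic receptor subunit CHRNA3 by 0.51. Of 50 axon guidance and adhesion genes 45 were tested, 3 rose and 2 fell (11.1%, against 4.18% of all genes). The semaphorin receptor PLXNA2 rose by 0.88, the ephrin receptor EPHB1 by 0.78 and the ephrin EFNA1 by 0.38, while PLXNA1 fell by 0.49 and CHL1 fell by 0.81 with both arms dim. The calls of CACNB2, CHRNA3, EFNA1 and PLXNA1 ended without at least 1 of the H69 arrays.

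No gene of proliferation passed the test. Of the 48 cell cycle genes 0 were called (limma), 1 had an unadjusted p below 0.05, E2F1, and all values lay between -0.25 and 0.25. E2F1 read 10.72 and 10.63 under DMSO and 10.42 and 10.42 under 552A, a difference of -0.25 with an adjusted p of 0.161. Among 30 genes of the MYC family and ribosome biogenesis 0 were called and 2 had an unadjusted p below 0.05, MXD3 and MYCN. MYCN, a driver oncogene of many SCLC lines, was second highest in H69 among the 9 untreated lines. It read 11.74 and 11.77 under DMSO and 11.39 and 11.32 under 552A, a difference of -0.40 with an adjusted p of 0.09. Its other probe sets gave -0.12, -0.14 and -0.14, the first of them brighter in H69, at 13.86 under DMSO. Of 35 tested genes of cell cycle arrest, p53 response and apoptosis none rose and 3 fell (8.57%, against 4.18% of all genes): SESN1 by 0.44, the survival protein BCL2 by 0.41 and TP53I3 by 0.38. Each of these 3 lost its call without at least 1 H69 array.

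KDM1A, which encodes LSD1, read 11.63 and 11.61 under DMSO and 11.63 and 11.66 under 552A, a difference of 0.03 ± 0.09. Of 27 genes for LSD1 and partner proteins that were tested, RREB1 rose by 0.39, HMG20B fell by 0.35 and HDAC1 by 0.30 (11.1% called, against 4.18% of all genes). GFI1 and GFI1B differed by -0.05 and 0.11 without a call. The calls of RREB1, HMG20B and HDAC1 ended without at least 1 of the H69 arrays. Among 27 DNA methylation and polycomb genes CBX7, a polycomb protein, fell by 0.47 and no other passed the test (3.7% called, against 4.18% of all genes). This call ended without DMSO replicate 2 or 552A replicate 1. DNMT3B, a DNA methyltransferase, read 10.28 and 10.04 under DMSO and 9.96 and 9.93 under 552A, a difference of -0.21 with an adjusted p of 0.436.

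Immune, metabolic and stress genes showed few calls. Of 29 tested interferon response genes RIGI, a sensor of viral RNA, rose by 0.45 and IFIH1, a related sensor, fell by 0.61 with both arms dim. Of 22 tested genes of class I antigen presentation the peptidase ERAP1 rose by 0.56 and HLA-C fell by 0.47. Of 27 tested genes of cholesterol and fatty acid synthesis 1 rose, TM7SF2 by 0.35, and of 36 genes of amino acid and unfolded protein stress 0 were called, with 3 at an unadjusted p below 0.05. These shares, from 0% to 9.09%, are to be read against 4.18% of all genes. The calls of RIGI, IFIH1, ERAP1, HLA-C and TM7SF2 all ended under at least 1 alternative. Of 21 tested genes of the tuft cell program 3 rose and 1 fell (19% called, against 4.18% of all genes): POU2AF1, a coactivator, rose by 1.02, the kinase DCLK1 by 0.60 and ANXA1 as above, while KIT fell. The dimmer second probe set of POU2AF1 gave 0.19. The call of DCLK1 ended when any 1 H69 array was left out. POU2F3, the master factor of tuft cells, was dim at 4.70 and 4.80 under DMSO and 4.44 and 4.59 under 552A. Of 8 tested genes of myeloid differentiation CD36, a fatty acid receptor, rose by 0.95 (12.5% called, against 4.18% of all genes). Of 18 tested markers of immune, fibroblast and endothelial cells CLDN5, a tight junction claudin, fell by 0.82 (5.56% called, against 4.18% of all genes), while LUM, a matrix proteoglycan, read 3.85 and 3.82 under DMSO and 4.57 and 4.82 under 552A with an adjusted p of 0.062.

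**Figure D3:**
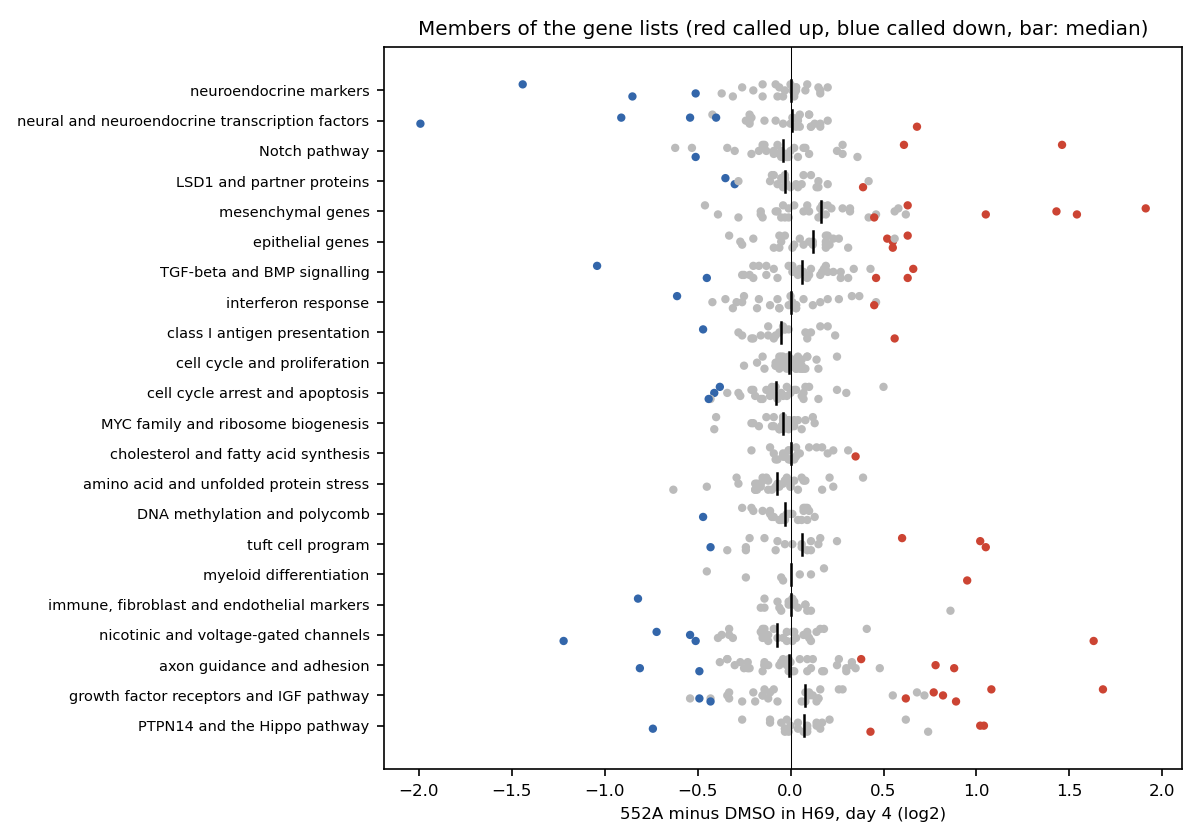
Change in log2 signal, 552A minus DMSO, of each tested member of 22 gene lists in H69 at day 4. Red points are genes called up, blue points genes called down and grey points the rest, and the black bar is the median of a list. The mesenchymal list holds 6 red points and no blue one, and the cell cycle list holds grey points between -0.25 and 0.25.

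The response of H69 was next set against the mean response of the 8 other lines at day 4, with a test of the difference itself. The difference was called for 399 of 15352 genes (2.6%), 203 higher in H69 (1.32%) and 196 lower (1.28%), and 324 of them were also called in H69 alone. These counts share the H69 arrays and are not independent. The count was 211 and 214 without DMSO replicates 1 and 2, 190 and 193 without 552A replicates 1 and 2, and 716 without the 6 doubtful arrays of other lines. In the same fit 641 genes were called in H69, between 77 in SHP-77 and 1638 in NCI-H446 in the other lines, all compared on the spread pooled over lines.

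CYB5R2 rose in H69 and was called in none of the other 8 lines. The value of 552A minus DMSO was 2.29 in H69 and between -0.01 and 0.29 in the other lines, and the difference was 2.16 ± 0.17 with an adjusted p of 2.27e-13. MYO5C rose by 1.93 in H69 and by 0.67 in COLO668, and the remaining lines had values from -0.03 to 0.43 with no call. FGFR1 rose by 1.68 in H69 and was also called up in COLO668 at 0.55, NCI-H446 at 0.45 and NCI-H526 at 0.58, and its lowest value was -0.49 in NCI-H510. CALB2 rose by 1.92 in H69 and by 0.99 in COLO668, fell by 1.00 in NCI-H146 and was not called in the other 6 lines. The mean over the 8 other lines was -0.31, and the difference was 2.23. SEZ6L rose by 0.77 in H1417 and had a change of -0.77 in NCI-H526, was called in no other line beside H69, and had a difference of 1.84. EFEMP1 was shared with some lines: it rose by 2.20 in COLO668, 1.41 in NCI-H510 and 1.19 in H1417, and the difference from the mean of the 8 lines was 1.73. FRZB rose by 2.06 in H69 and 2.51 in NCI-H146, and LOX rose by 1.60 in NCI-H446. Their differences from the mean of the 8 lines were 1.78 and 1.55.

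The 8 falling genes named next were chosen for the largest called difference from the other lines. All 8 had their lowest change in H69, which that choice favours. GNG8 changed by -1.97 in H1417 and -0.86 in H2171, with values from -0.36 to 0.23 in the other 6 lines, and the difference from the mean of the 8 lines was -2.34 ± 0.14. SCNN1G rose by 2.36 in NCI-H510 and 1.66 in COLO668 while it fell in H69, a difference of -2.35 that was -0.11 without the filter on dim probe sets. LGR6 changed by -0.99 in H2171, with values from -0.11 to 0.40 in the others, with a difference of -1.65. MEP1B, TPPP3, PLCD4 and SYNGR4 differed by -1.33, -1.40, -1.34 and -1.29. PLCD4 is a phospholipase C and SYNGR4 a synaptogyrin. RGS4 differed by -1.28 with an adjusted p of 0.00889, and this call ended when any 1 H69 array was left out. It also changed by -1.55 in NCI-H446. Under DMSO at day 4 the median of the other lines was 6.96 for GNG8, 7.04 for LGR6, 6.29 for MEP1B and 5.08 for SCNN1G. H69 stood at 9.66, 11.16, 9.89 and 7.32, and the highest of the other lines at 11.31, 9.45, 8.89 and 9.87. Whether low starting levels limited falls in the other lines was not tested.

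**Figure D4:**
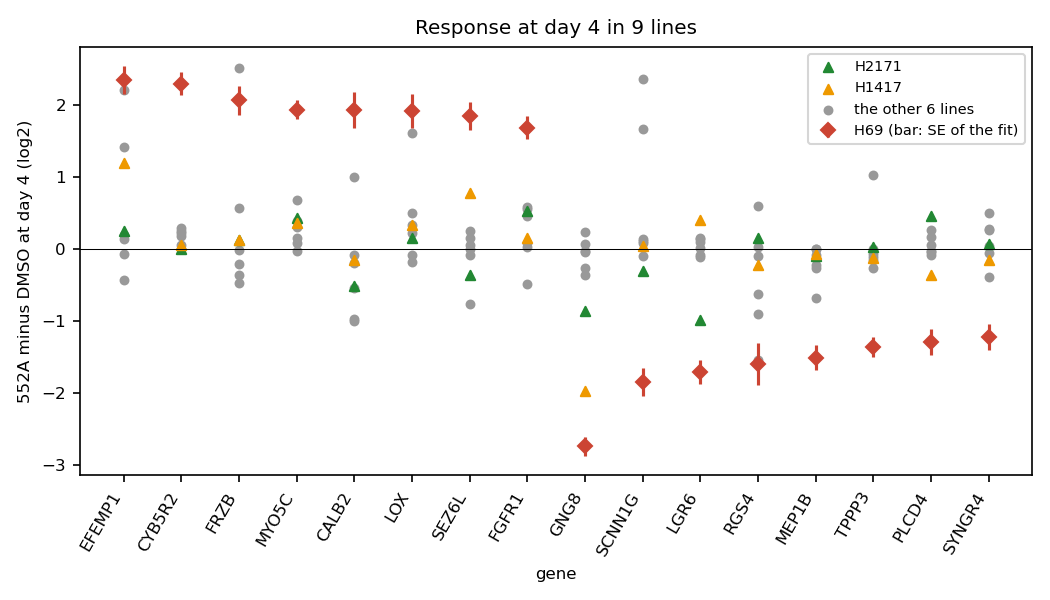
Change in log2 signal at day 4, 552A minus DMSO, in 9 SCLC lines for 8 genes that fell and 8 that rose, chosen by the size of the called difference between H69 and the mean of the other lines. Red diamonds are H69 with the standard error of the fit, green and orange triangles are H2171 and H1417, and grey points are the other 6 lines. CYB5R2 in H69, at 2.29, lies above all other lines, between -0.01 and 0.29, while FRZB reaches 2.51 in NCI-H146.

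Some genes that other lines raised did not pass the test in H69. VIM was called up in 4 of the other lines, by up to 2.52 in NCI-H510, and its mean over all 8 was 1.13 against 0.22 in H69, a difference of -0.91 with an adjusted p of 0.00073. The death receptor TNFRSF10B differed by -0.95, with both H69 arms dim, the kinase NUAK1 by -0.92 and UMODL1, a membrane protein, by -1.13. UMODL1 was called up in 5 of the 8 other lines and read 7.50 and 7.45 under DMSO and 7.45 and 7.37 under 552A in H69. In the other direction ETS1, a transcription factor, was called down in 4 lines, with a value of -0.08 in H69, a difference of 0.73. ALDH1A1, a retinal dehydrogenase, differed by 0.77. In all, 49 genes with a lower and 26 with a higher difference were not called in H69 itself. These 6 genes were named after their values were seen. SEPTIN10, a cytoskeletal GTPase, rose by 0.46 in H69, with values from 0.14 in SHP-77 to 3.54 in NCI-H526 in the other lines and a difference of -0.50 from their mean. The value in H69 lay above those of H1417, H2171 and SHP-77. Its call in H69 ended when any 1 H69 array was left out.

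H2171 and H1417 were, like H69, sampled at day 4 alone. The response of H69 differed from that of H2171 in 298 genes (1.94%), 147 higher (0.958%) and 151 lower (0.984%), a count that was 184 without DMSO replicate 2, 193 without 552A replicate 1 and 625 without the 6 doubtful arrays. It differed from that of H1417 in 648 genes (4.22%), 260 higher (1.69%) and 388 lower (2.53%), and in 1219 without the 6 doubtful arrays. NKX2-2 separated the 3 lines. The values were -1.99 in H69, -0.15 in H2171 and -5.40 in H1417, and the differences were -1.84 ± 0.32 from H2171 and 3.41 ± 0.32 from H1417. GNG8 fell in all 3, with changes of -2.74 in H69, -0.86 in H2171 and -1.97 in H1417, and with differences of -1.88 and -0.77. ZEB1 rose by 1.54 in H69 and 2.42 in H1417, with a value of -0.13 in H2171, with differences of -0.87 from H1417 and 1.67 from H2171. DLL1 rose by 1.46 in H69 and 1.87 in H2171, with a value of 0.26 in H1417, and the difference was called against H1417 at 1.19 and not against H2171 at -0.41.

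Against H2171 the other large differences were in CALB2 at 2.44, CYB5R2 at 2.29, SEZ6L at 2.21, EFEMP1 at 2.09, RGS4 at -1.75 and PLCD4 at -1.74. The values in H2171 were 0.15 for RGS4 and 0.45 for PLCD4. Against H1417 RASSF6, ETS1 and OTOGL differed by 2.42, 2.39 and 2.27 with values of -2.65, -2.47 and -2.32 in H1417 and of -0.23, -0.08 and -0.05 in H69. SOX9, a transcription factor, SORCS3, a sorting receptor, and LBH, a transcription cofactor, rose by 2.60, 2.84 and 3.33 in H1417, with values of 0.16, 0.52 and 1.16 in H69. Their differences were -2.44, -2.32 and -2.17. LGR6 differed by -2.10, with a value of 0.40 in H1417.

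Under DMSO at day 4 H69 differed from the mean of the 8 other lines in 10669 genes (69.5%). POSTN, the matrix protein periostin, read 13.61 and 13.66 in H69, and its mean lay between 4.70 and 5.70 in each of the other lines. PEG3, an imprinted zinc finger gene, read 13.03 and 12.88 against 4.80 to 5.20, and GJA1, a connexin, 12.52 and 12.49 against 4.45 to 9.33. AGR3, MPPED2 and FABP7, the brain fatty acid-binding protein, stood 6.64, 6.58 and 5.74 above the mean of the other lines. HLTF, a helicase-like chromatin protein, read 7.30 and 7.12 against 10.82 to 12.71. SPIN4 and TCEAL9 were dim in H69 and above 10.5 in every other line. Of these genes HLTF rose under 552A, by 0.54 ± 0.09 with an adjusted p of 1.81e-05, and TCEAL9 fell by 0.35 with both arms dim. POSTN read 13.23 and 13.31 under 552A, a difference of -0.37 with an adjusted p of 0.33. All 12 genes with the largest falls lay above the mean of the other lines under DMSO. LGR6 did so by 3.68, MEP1B by 3.23 and NGB by 2.11. Of all genes tested 33.6% were called higher in H69. The 12 genes with the largest rises lay on both sides, with MYO5C at -2.88 and FRZB at 1.92 among them. The DMSO level and the change share the H69 DMSO arrays, so their relation was not tested.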

How the data were processed

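The deposited values are log2 signals per probe set of 88 arrays; the program, background correction and scaling that the authors used to make them were not given in the sources used here. Array medians lay between 7.36 and 7.46, so the values were used as deposited. Of 54675 probe sets 41091 carried 1 gene symbol and entered the fit. A probe set was kept where the mean of at least 1 of 42 groups (line, treatment, day) exceeded 7.41, the median of all values, and the brightest kept one stood for its gene, with those ending in _x_at set aside where another existed. This gave 15352 genes.

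All arrays were fitted with 1 mean per group in limma 3.58.1 (lmFit and eBayes, two-sided, R 4.3.3; version 1.17.8 of data.table), with a residual df of 46 and a prior df of 6.52, so the spread was pooled over lines. The H69 response was 552A minus DMSO at day 4. It was set against the mean of the other lines' day 4 responses and against those of H2171 and H1417. P-values were adjusted by Benjamini-Hochberg over all genes and called below 0.05. SE is the standard error of the fit. The cell line, the gene lists and the tests were chosen with earlier results of these data known.

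Named were the 12 called genes that rose most and the 12 that fell most, 8 per direction with the largest difference from the other lines called in both tests, 4 per direction against H2171 and against H1417, 6 per direction between untreated lines, up to 6 called genes per list (or 2 with the smallest p) and a fixed set of regulators. Alternatives covered normalization, filters, probe set choice, an intensity trend, the arrays fitted, the replicate block and each H69 array left out. The 6 arrays in doubt were 5 with a 3' minus 5' ACTB control signal above 0.8 and NCI-H446 DMSO day 4 replicate 2. Tested on simulated data, the fit recovered 58.2% of genes changed by 0.5 on the log2 scale, 97% at 1 and 100% at 2, and called 10 of 15152 unchanged genes. The simulation drew independent normal noise per gene, with the spread pooled over groups, as the fit assumes. These shares may therefore differ for the real H69 arrays. The 1801 probe sets of several genes and the 11721 without a name entered a separate fit over all probe sets. Figures used matplotlib 3.10.9 and numpy 2.4.6, and sequences pandas 2.3.3, under Python 3.11.15; promoters came from RefSeq (GRCh38.p14).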

Additional observations from a re-analysis of the deposited data

Results flagged for a closer look

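The response of H69 differed by a test of the difference itself from the mean of the 8 other lines in 399 genes, from H2171 in 298 and from H1417 in 648. These comparisons share the H69 arrays. Against the mean of the other lines, 552A minus DMSO was higher in H69 by 2.23 for CALB2, 2.16 for CYB5R2, 1.84 for SEZ6L, 1.78 for FRZB, 1.73 for EFEMP1, 1.64 for MYO5C, 1.55 for LOX and 1.45 for FGFR1, on the log2 scale. It was lower, with differences of -2.35 for SCNN1G, -2.34 for GNG8, -1.65 for LGR6, -1.40 for TPPP3, -1.34 for PLCD4, -1.33 for MEP1B, -1.29 for SYNGR4 and -1.28 for RGS4.

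Against H2171 the differences were 2.44 for CALB2, 2.29 for CYB5R2, 2.21 for SEZ6L, 2.09 for EFEMP1, -1.88 for GNG8, -1.84 for NKX2-2, -1.75 for RGS4 and -1.74 for PLCD4. Against H1417 they were 3.41 for NKX2-2, 2.42 for RASSF6, 2.39 for ETS1, 2.27 for OTOGL, -2.44 for SOX9, -2.32 for SORCS3, -2.17 for LBH and -2.10 for LGR6. The adjusted p of each of these 32 differences was below 0.05 (limma).

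Signal also changed in probe sets that no single gene symbol names and that the comparisons of genes left out. In a fit over 36232 probe sets, 89 of 6634 without 1 symbol were called, 53 up and 36 down. Probe set 215388_s_at read 8.43 and 8.09 under DMSO and 6.51 and 6.70 under 552A, a fall of 1.66. Probe set 231432_at fell by 1.45 with its 552A arm dim, and 232377_at rose by 1.31.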

How the results depend on the processing

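No called difference of a named gene changed sign under an alternative; MYC, MYCL, REST and YAP1, which did not pass the test, changed sign under at least 1. None of the 6 arrays in doubt came from H69. Without them the calls rose to 1070 for the H69 response and 716 for its difference from the other lines. They rose to 625 against H2171 and 1219 against H1417. Each group has its own mean in the fit, so leaving these arrays out alters the pooled spread and not the H69 changes. The median within-group standard deviation was 0.064 in H69 and 0.128 over all arrays. The source of the larger spread was not tested. Leaving out 1 H69 array leaves fewer samples, and the lone array of an arm is then assumed to vary like other groups. The counts ranged from 328 to 381 for the response, 190 to 214 against the other lines, 184 to 227 against H2171, 454 to 492 against H1417 and 8899 to 10641 for untreated cells. Under all other alternatives run, the 5 counts stayed within 1.5 times of the main counts. Of 85 named genes called in the response, 43 were called under every alternative and 42 lost the call under at least 1. Array signal limits what can be said of the 30 called genes with 1 dim arm and the 17 with both.

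Whether arrays with the same replicate number were paired is not known from their titles. Deviations of same-numbered H69 arrays correlated at 0.187, and at -0.405 to 0.537 over 21 pairs of line and day. With the replicate block the calls were 629 for the response, 577 of them shared with the fit without it, 385 against the other lines, 286 against H2171, 682 against H1417 and 9776 for untreated cells.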

Other observations

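The gene families below were chosen after their values were seen, so their counts are a description. Of 36 tested genes of motile cilia, the beating structures of airway cells, 6 fell and 1 rose (19.4% called, against 4.18% of all genes), with a median change of -0.08. CDC20B, a gene of multiciliated cells, read 9.23 and 9.44 under DMSO and 8.16 and 7.80 under 552A, a fall of 1.36. CFAP251, a cilium protein, read 7.47 and 7.52 under DMSO and 6.51 and 6.48 under 552A, a fall of 1.00. TPPP3 fell by 1.36, CCDC78 by 0.90, CCNO, a cyclin-like protein of multiciliated cells, by 0.36 and C7orf57 by 1.19 with both arms dim. SPAG17 rose by 0.67 from a dim level. FOXJ1, the main transcription factor of motile cilia, read 7.03 and 7.38 under DMSO and 7.20 and 7.46 under 552A and did not pass the test.

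Of 5 tested LYPD genes, which encode small membrane-anchored proteins, 3 rose (60% called, against 4.18% of all genes). LYPD6 read 7.98 and 8.17 under DMSO and 9.28 and 9.34 under 552A, a rise of 1.23. LYPD6B rose by 1.16 and LYPD1 by 0.57, the latter from a dim level. Of 15 tested genes of the FGF family, taken by symbol and not all of them receptor ligands, 2 rose (13.3%, against 4.18% of all genes). FGF5 read 8.40 and 8.51 under DMSO and 9.71 and 9.80 under 552A, a rise of 1.31, and FGF13 rose by 0.87. FGFR3 and FGFR4 differed by -0.33 and 0.10 and did not pass the test.

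Of 30 tested G protein subunits 2 fell (6.67%, near the 4.18% of all genes), both gamma subunits: GNG8, and GNG11 by 0.96, from 8.25 and 8.47 to 7.39 and 7.41. Of 17 tested RGS genes RGS4 fell and no other passed the test (5.88%, near the 4.18% of all genes). Of 23 tested myosins 3 rose and 1 fell (17.4%, against 4.18% of all genes). MYO18B rose by 1.13 and MYO10 by 0.46, beside MYO5C, and MYO7A fell by 0.62.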
